A study of Mus musculus with 6 samples.

Results

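The Ms4a genes described here are 6 members of the membrane-spanning Ms4a family that macrophages express: Ms4a4a, Ms4a4c, Ms4a6b, Ms4a6c, Ms4a6d and Ms4a7. They were taken by symbol from the deposited table of 15824 genes, and all 6 were found. RNA sequencing had been done on alveolar macrophages, the phagocytes of the lung airspaces, isolated by flow cytometry from Men1 knockout (KO) and wild-type (WT) mice aged 8 weeks, with 3 libraries per genotype and no further treatment. Men1 encodes menin, a scaffold protein of histone methyltransferase complexes, and the study asks which genes depend on it in macrophages. The labels do not name the strain, the sex, the promoter or Cre line behind the knockout, or whether animals were pooled.

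Ms4a proteins cross the cell membrane several times and sit in the plasma membrane and in endosomes, where they associate with other receptors and tune their signalling. The family is best known from lymphoid and mast cell members, the B cell antigen CD20 (gene Ms4a1) and the beta chain of the high-affinity IgE receptor (gene Ms4a2). A second group of genes in the same chromosomal cluster is transcribed mainly in monocytes and macrophages, and in the mouse several family members also serve as odour receptors of necklace neurons in the nose.

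Counts per library totalled 19955242 to 20151990. Men1 itself had 150, 149 and 165 counts in the KO libraries, against 639, 594 and 603 counts in the WT libraries, a log2 fold change of -1.93 (adjusted p = 7.24e-24 by edgeR). General macrophage genes were abundant in every library, while the alveolar macrophage markers were mixed. Marco was at 1137 ± 22.8 CPM in KO and 172 ± 2.17 CPM in WT (scaled counts, relative to library size), and Atp6v0d2, Itgax, Fabp4 and Pparg were also expressed, at 13.1 to 60.8 CPM in KO and 19 to 119 CPM in WT. Chil3 was at 13.9 ± 0.676 CPM in KO and 6.94 ± 0.349 CPM in WT. Siglecf was low, at 1.34 ± 0.154 CPM in KO and 2.06 ± 0.381 CPM in WT (SD, n = 3 each). Ear2, Fabp1 and Plet1 stayed below 0.1 CPM in both, and the symbols Car4 and Krt79 were not listed among the genes. Transcripts of 4 Y-linked genes summed to 0 to 2 counts in KO libraries and to 3320 to 3445 counts in WT libraries, so genotype and the presence of Y-linked transcripts cannot be told apart. The labels leave unstated whether the 3 libraries of a genotype are different mice, and the spread that the p-values rest on may therefore be technical. It was small (biological coefficient of variation 1.66%).

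Of the 6 Ms4a genes, 5 were higher in KO macrophages and none was lower. Ms4a4a stood apart at 3.57-fold, Ms4a6c, Ms4a6d, Ms4a6b and Ms4a4c were 1.74-fold, 1.51-fold, 1.35-fold and 1.27-fold higher, and Ms4a7 did not pass the test at 1.03-fold. Each of 11817 genes was tested with the quasi-likelihood F test of edgeR, its p-values were adjusted by the Benjamini-Hochberg method, and 0.05 was the threshold, by which 34.4% of all genes tested were higher in KO, 34.9% were lower and 69.2% changed in either direction. The members had a median log2 fold change of 0.51, against 0.00 over all genes tested. A change of at least 2-fold was reached by 1 member, Ms4a4a, and by 3.26% of all genes tested in the same direction (4.94% were at least 2-fold lower, 8.2% either). By CPM the KO libraries lay above all WT libraries in 6 of 6 members and in 35.4% of all genes tested, and the groups were separate in either direction in 71.2%, but Ms4a7 turned on the TPM scale and with total count scaling. In bulk RNA a change in the number of cells that carry a transcript and a change in the transcript per cell cannot be told apart.

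Many marker genes of macrophages and monocytes differed as well, as did 69.2% of all genes tested (34.4% higher and 34.9% lower in KO). Of 8 tested interstitial macrophage markers, 7 were higher in KO and none lower, with a median log2 fold change of 1.10, and the summed level of the list was 1688 to 1726 CPM in KO against 815 to 830.1 CPM in WT. Its member Lyve1 was nearly undetected, at 0.017 CPM in KO and 0.0655 CPM in WT. Of 6 monocyte markers, 4 were higher and 2 lower, and their sum was 125 to 129.7 CPM in KO against 68.6 to 70.3 CPM in WT. Of 8 general macrophage genes, 6 were higher, among them the receptor gene Csf1r with 2738 ± 28.5 CPM in KO and 1432 ± 17.6 CPM in WT (SD, n = 3 each). Of 7 tested alveolar macrophage markers, 2 were higher and 4 lower, and the list summed to 1285 to 1326 CPM in KO against 396 to 411 CPM in WT. Marco made up most of this sum in KO but not in WT. The part of these marker shifts in the Ms4a result was not tested.

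Markers of cells outside the macrophage lineage were scarce apart from the neutrophil list and, in WT, the fibroblast list. Beside the calls given for them, 34.4% of all genes tested were higher in KO and 34.9% lower. Fibroblast markers fell in 6 of 6 cases, with a sum of 7.21 to 8.46 CPM in KO against 67.8 to 69.7 CPM in WT. Neutrophil markers summed to 622 to 643 CPM in KO and 831 to 848 CPM in WT, mostly from Mmp8, with 3 of 4 tested higher and 1 lower. Dendritic cell markers summed to 23.2 to 24.9 CPM in KO and 14.1 to 15.7 CPM in WT, with 2 of 3 tested higher and 1 lower. B cell markers summed to 9.48 to 10.7 CPM in KO and 6.88 to 7.16 CPM in WT, almost all from Cd79b, which was higher in KO, with Pax5 below 0.1 CPM. T cell markers summed to at most 1.78 CPM in KO and 1.13 CPM in WT, with 1 tested gene, Lck, higher. Mast cell and basophil markers summed to at most 5.38 CPM in KO and 9.73 CPM in WT, with 2 of 2 tested lower. Epithelial markers were close to 0, at up to 0.355 CPM in KO and 0.536 CPM in WT, and none reached the test. Their part in the Ms4a result was likewise not tested.

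**Figure D1:**
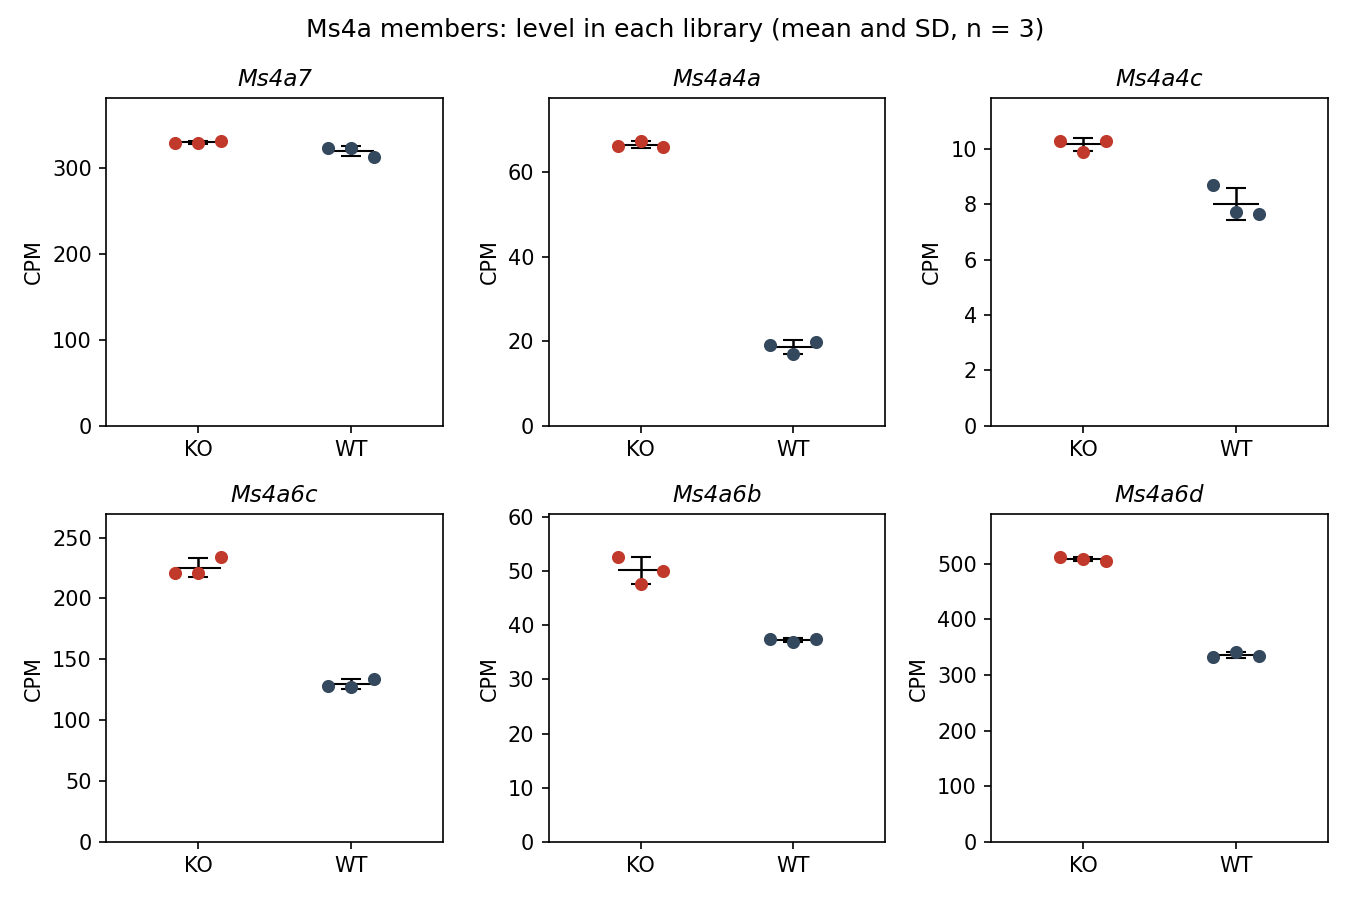
Level of each Ms4a member in CPM (vertical axes, from 0), with 1 point per library, KO left of WT, and black bars for the mean and SD of 3 libraries. The KO points of Ms4a4a lie at 66.1 to 67.5 CPM, far above the WT points at 16.9 to 19.9 CPM, while those of Ms4a7 lie at 329 to 332 CPM beside WT points at 313 to 324 CPM, a direction that turns on the TPM scale and with total count scaling.

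Ms4a4a, whose product binds the beta-glucan receptor Dectin-1 in macrophages, changed more than any other member. Its counts were 1304, 1321 and 1298 in the KO libraries, against 389, 344 and 409 in the WT libraries. Every KO library had more than 3 times as many reads as any WT library. The level averaged 66.6 ± 0.766 CPM in KO and 18.6 ± 1.57 CPM in WT (SD, n = 3 each), a log2 fold change of 1.84 (adjusted p = 7.21e-28 by edgeR, SE 0.048). Of the 11817 genes tested, 99, or 0.838%, had a fold change at least as high. The gene lies on chromosome 19 from 11375488 to 11392915 (build GRCm38.p6, gene ID 666907). None of the 787 windows of 50 bases along its transcript occurs in a transcript of another gene.

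Ms4a4c, a close relative that is transcribed in mouse monocytes and T cells, was the least abundant member. It had 202, 194 and 203 counts in KO against 177, 157 and 157 counts in WT. The groups did not overlap, but the lowest KO library and the highest WT library lay close together. Levels of 10.2 ± 0.228 CPM in KO and 8.02 ± 0.579 CPM in WT (SD, n = 3 each) gave a log2 fold change of 0.34 (adjusted p = 0.000797 by edgeR, SE 0.088), a value that 17.9% of all genes tested reached or passed. When the biological coefficient of variation was set to 0.1 in place of the fitted spread, the call was lost (adjusted p = 0.0521, edgeR's likelihood-ratio test). Its coding sequence is identical to that of Ms4a4a at 68.2% of aligned bases, and 8% of its transcript windows also occur in Ms4a4b, which had 15 to 20 counts in KO and 15 to 23 counts in WT. The gene runs from 11404717 to 11427246 (gene ID 64380). The labels and file headers do not say how such reads were shared out in the counting.

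The 3 Ms4a6 genes lie close together on chromosome 19 and have related coding sequences. Their coding starts are shown to make the degree of likeness visible. Each line is the first 90 bases of the coding sequence, from the start codon on, taken from the GENCODE M21 transcript (build GRCm38), with capitals at the 19 positions where the 3 genes differ.
Ms4a6b: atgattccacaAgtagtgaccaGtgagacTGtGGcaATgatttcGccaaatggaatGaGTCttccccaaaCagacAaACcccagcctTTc
Ms4a6c: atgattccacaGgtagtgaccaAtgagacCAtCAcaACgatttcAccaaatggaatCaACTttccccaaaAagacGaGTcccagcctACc
Ms4a6d: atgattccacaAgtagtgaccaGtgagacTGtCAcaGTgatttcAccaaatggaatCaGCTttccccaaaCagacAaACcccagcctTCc
Leaving out gaps, Ms4a6b and Ms4a6c were identical at 85.7% of aligned coding bases, Ms4a6b and Ms4a6d at 81.3%, and Ms4a6c and Ms4a6d at 77.5%. With gaps counted, the values were 74.3%, 79.9% and 67.4% in the same order, so the closest pair depends on the measure. Exact sharing over 50 bases was rarer: 4.14% of the 50-base windows of Ms4a6b occur in Ms4a6c and 1.52% in Ms4a6d.

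Ms4a6c, which monocytes and macrophages of the mouse express, had the second highest fold change. Its counts were 4350, 4319 and 4590 in the KO libraries, against 2607, 2576 and 2758 in the WT libraries. All KO libraries lay well above all WT libraries. The level averaged 225 ± 7.58 CPM in KO and 129.7 ± 4.24 CPM in WT (SD, n = 3 each), with a log2 fold change of 0.80 (adjusted p = 6.53e-24 by edgeR, SE 0.028). Among all genes tested, 5.2% had a fold change at least as high. The gene spans positions 11469353 to 11487182 of chromosome 19 on the forward strand (gene ID 73656), and 55.4% of its transcript windows are covered by the non-coding gene BE692007 on the opposite strand. The labels and file headers do not state whether strand was used in the counting, so reads of this antisense gene cannot be told apart from those of Ms4a6c.

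Ms4a6d, described in mouse macrophages as a partner of the complement receptor Vsig4, was the most abundant member. It had 10083, 9954 and 9887 counts in KO against 6773, 6949 and 6853 counts in WT. The 3 libraries of each genotype agreed closely, with coefficients of variation of 0.8% in KO and 1.4% in WT. Counting error alone would give 1% and 1.2%. Its level averaged 508 ± 4.06 CPM in KO and 336 ± 4.79 CPM in WT (SD, n = 3 each), a log2 fold change of 0.60 (adjusted p = 2.49e-24 by edgeR, SE 0.02), which 8.29% of all genes tested reached or passed. The gene runs from 11586606 to 11604804 (gene ID 68774). Of its transcript windows, 2.92% also occur in Ms4a6b.

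Ms4a6b, also studied in mouse T cells, where it is linked to activation, shifted by less than its neighbours of the same name. It had 1036, 934 and 983 counts in KO against 764, 752 and 766 counts in WT. Its coefficient of variation was 4.9% in KO and 0.76% in WT, where counting error alone would give 3.2% and 3.6%. The WT spread was thus below counting error. The groups did not overlap. Its level averaged 50.1 ± 2.44 CPM in KO and 37.3 ± 0.282 CPM in WT (SD, n = 3 each), a log2 fold change of 0.43 (adjusted p = 6.3e-11 by edgeR, SE 0.043), which 13.7% of all genes tested reached or passed. The gene runs from 11518559 to 11530403 (gene ID 69774).

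The promoters of Ms4a6b and Ms4a6c are shown because their upstream sequences are related, while the genes rose by different amounts, 0.43 and 0.80 on the log2 scale. Both are the 250 bases before the RefSeq start site (build GRCm38.p6, forward strand, read 5′ to 3′), chr19:11518309-11518558 for Ms4a6b and chr19:11469118-11469367 for Ms4a6c. The stretch of Ms4a6c ends inside the annotated gene span, which begins at 11469353. Capitals mark runs of at least 12 bases that the pair shares exactly.
Ms4a6b: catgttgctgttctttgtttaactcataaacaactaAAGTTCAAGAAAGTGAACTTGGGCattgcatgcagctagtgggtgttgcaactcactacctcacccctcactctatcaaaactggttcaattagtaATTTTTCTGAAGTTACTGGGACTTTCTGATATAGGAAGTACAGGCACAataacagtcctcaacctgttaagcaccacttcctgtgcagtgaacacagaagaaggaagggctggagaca
Ms4a6c: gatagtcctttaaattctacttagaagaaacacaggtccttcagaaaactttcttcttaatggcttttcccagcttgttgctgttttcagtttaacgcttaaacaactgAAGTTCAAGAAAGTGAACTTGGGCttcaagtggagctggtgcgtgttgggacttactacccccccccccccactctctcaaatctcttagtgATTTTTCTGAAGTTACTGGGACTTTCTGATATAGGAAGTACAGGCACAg
The pair was identical at 85.1% of 175 aligned bases, and its longest shared run covers 48 bases, starting 118 bases before the start site of Ms4a6b and 49 bases before that of Ms4a6c. This run occurred in the promoters of 2 genes in the RefSeq table, the same pair. The other 9 pairs of member promoters were identical at 48.1% to 58.6% of aligned bases, with no shared run above 9 bases. A promoter of Ms4a6d was not used here.

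Ms4a7, a marker of tissue macrophages outside the brain parenchyma, did not differ from Ms4a6d in its WT level per length and was the member that did not pass the test. Its counts were 6475, 6436 and 6507 in the KO libraries, against 6577, 6591 and 6419 in the WT libraries. The raw counts of the genotypes overlapped, and all KO libraries lay above all WT libraries in CPM, after TMM scaling, whose factors were 0.979 to 0.983 in KO and 1.02 in WT. With scaling by total count alone the log2 fold change was -0.01 (adjusted p = 0.598, edgeR's quasi-likelihood test). The level averaged 329.6 ± 1.61 CPM in KO and 319.8 ± 5.96 CPM in WT (SD, n = 3 each), a log2 fold change of 0.04 with an approximate 95% interval from 0.00 to 0.09 (adjusted p = 0.073 by edgeR), and 45.1% of all genes tested had a fold change at least as high. Without a filter on low counts it passed as higher, at 0.05 (adjusted p = 0.0372, edgeR's quasi-likelihood test). On the TPM scale, which divides by gene length and fixes the total of each library, it was lower, with a log2 difference of -0.10 (adjusted p = 0.0021, limma on log2(TPM + 1)), where the median of all genes tested moved to -0.12. Relative to that median the difference was 0.02. On the same scale the split of called genes moved to 2463 higher and 5781 lower, against 4060 higher and 4119 lower in the main analysis. The gene runs on the reverse strand from 11321039 to 11336146 (gene ID 109225), and none of its transcript windows occurs in another gene.

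**Figure D2:**
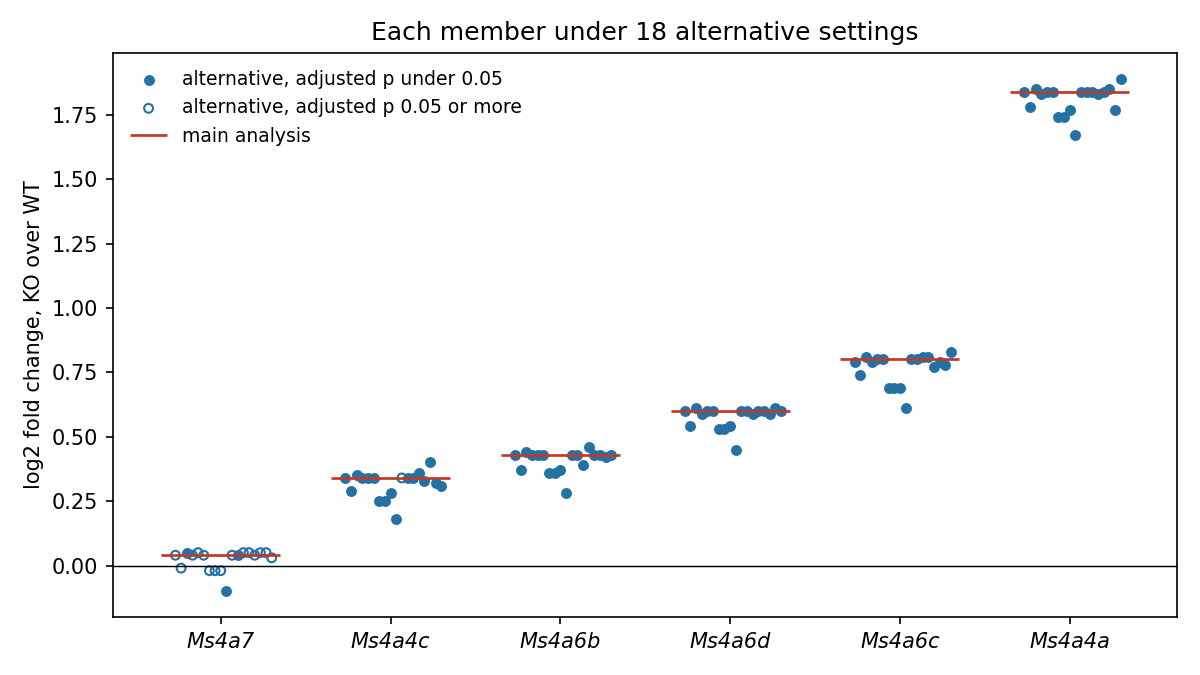
Log2 fold change of KO over WT (vertical axis) for each member under 18 alternative settings, with filled points for an adjusted p under 0.05, open points otherwise and a red line for the main analysis. Ms4a4a stays between 1.67 and 1.89, while Ms4a7 lies between -0.10 and 0.05 on both sides of 0.

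Levels can be compared between genes per length, on the TPM scale (the authors' length-scaled unit). In KO the order was Ms4a6d at 637 ± 7.64 TPM, Ms4a7 at 431 ± 0.809 TPM, Ms4a6c at 282 ± 8.69 TPM, Ms4a4a at 131 ± 1.62 TPM, Ms4a6b at 48.2 ± 2.39 TPM and Ms4a4c at 9.46 ± 0.22 TPM (SD, n = 3 each). In WT it was Ms4a6d at 465 ± 5.73 TPM, Ms4a7 at 462 ± 10.3 TPM, Ms4a6c at 185 ± 10.4 TPM, Ms4a4a at 40.4 ± 3.49 TPM, Ms4a6b at 39.5 ± 0.408 TPM and Ms4a4c at 8.22 ± 0.65 TPM (SD, n = 3 each). The KO levels were all separated by more than their spread, whereas in WT neither Ms4a6d and Ms4a7 nor Ms4a4a and Ms4a6b differed beyond theirs. The 6 genes summed to 1537 to 1539.6 TPM in the KO libraries and to 1196 to 1206 TPM in the WT libraries, and a sum of this kind follows its most abundant members.

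The make-up of this sum differed between genotypes. Ms4a7 supplied 28 ± 0.0764% of it in KO and 38.5 ± 0.764% in WT, the widest shift in share of the 6 genes. Ms4a4a supplied 8.5 ± 0.0972% in KO and 3.37 ± 0.286% in WT. Ms4a6c and Ms4a6d took slightly larger shares, at 18.3 ± 0.577% and 41.4 ± 0.462% in KO against 15.4 ± 0.878% and 38.8 ± 0.57% in WT. Ms4a6b supplied 3.13 ± 0.155% in KO and 3.29 ± 0.02% in WT, and Ms4a4c 0.615 ± 0.0148% in KO and 0.685 ± 0.0508% in WT (SD, n = 3 for each share).

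**Figure D3:**
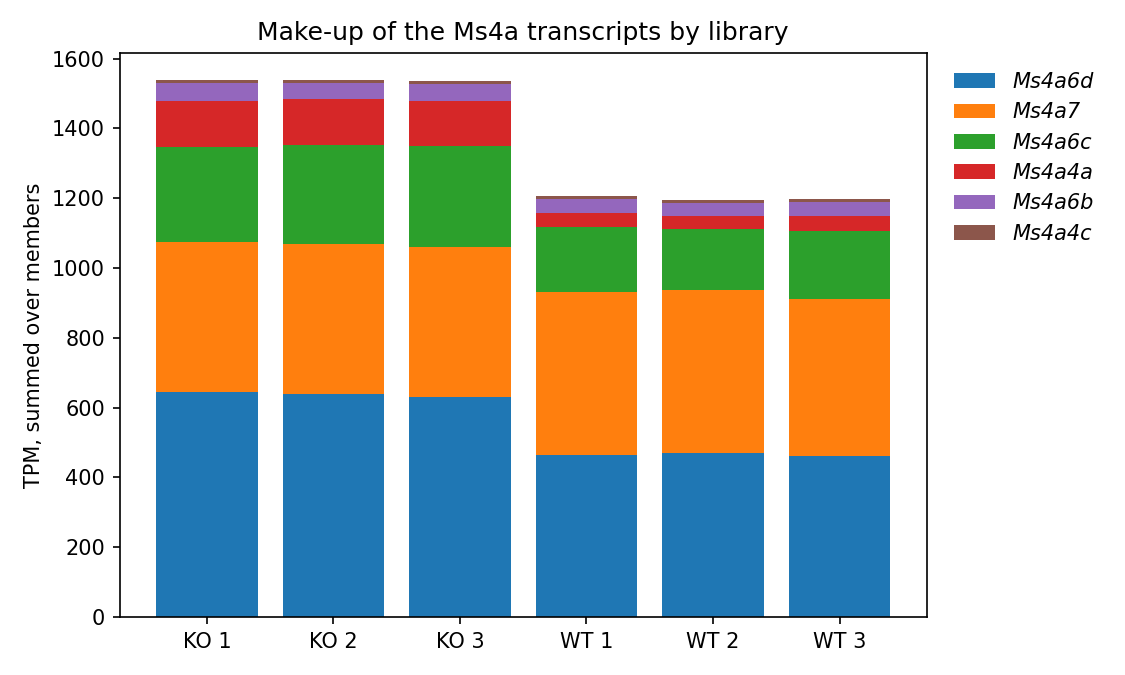
Summed TPM of the 6 Ms4a genes (vertical axis) in each library, KO left of WT, with 1 colour per gene. The stacks reach 1537 to 1539.6 TPM in KO and 1196 to 1206 TPM in WT, and the Ms4a7 segment takes 28% of the KO stacks and 38.5% of the WT stacks.

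The fold changes of the members ranged from 0.04 to 1.84 on the log2 scale. For each of 15 pairs the within-library log2 ratio of CPM was compared between genotypes, and in 14 pairs the KO and WT ratios did not overlap. Single genes were already separate between the genotypes in 71.2% of all genes tested, and other gene pairs were not compared, so the count is given as a description of the members alone. The log2 ratio of Ms4a4a to Ms4a7 was -2.31 ± 0.021 in KO and -4.10 ± 0.15 in WT, a difference of 1.80. That of Ms4a6d to Ms4a7 was 0.62 ± 0.018 in KO and 0.07 ± 0.026 in WT, a difference of 0.55 (SD, n = 3 each). Within the Ms4a6 genes the ratio of Ms4a6b to Ms4a6c differed by -0.37, that of Ms4a6c to Ms4a6d by 0.20 and that of Ms4a6b to Ms4a6d by -0.17, and none of these 3 pairs overlapped. The pair that overlapped was Ms4a4c and Ms4a6b, with a difference of -0.08. With 3 libraries against 3, the two-sided exact permutation test cannot go below 0.1, so no pair could reach 0.05, and the smallest value adjusted over the 15 pairs was 0.107.

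Only 2 other Ms4a genes of the cluster had enough reads to be tested, with 0 called higher and 1 lower. Over all genes tested, 34.4% were higher in KO and 34.9% lower. The members span 284 kb of chromosome 19, with Ms4a7 at one end and Ms4a6d at the other, about 4.98 Mb from Men1 on the same chromosome. Of 21 Ms4a genes that RefSeq places on chromosome 19, 14 were measured here, among them 8 that are not members. Ms4a14, the neighbour of Ms4a7, was lower in KO, with 325, 291 and 321 counts in KO against 406, 362 and 394 counts in WT. This is a log2 fold change of -0.25 (adjusted p = 0.000927 by edgeR, SE 0.066), which was lost when the coefficient of variation was set to 0.1 (adjusted p = 0.125). Ms4a4b, a gene of T cells that lies between Ms4a4c and Ms4a6c, had a log2 fold change of -0.03 (adjusted p = 0.939 by edgeR, SE 0.28). The other 6, including Ms4a1 of B cells with 1 to 4 counts in KO and 3 to 5 counts in WT, and Ms4a2 of mast cells with 0 to 1 counts in KO and 1 to 3 counts in WT, had too few reads to be tested.

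Genes of other families lie on both sides of the cluster. Within 500 kb of the members, 15 such genes were measured and 9 were tested. Of these 1 was higher and 4 were lower, against 34.4% and 34.9% of all genes tested, and their median log2 fold change was -0.08. Stx3, which encodes a syntaxin of membrane fusion, had the lowest fold change among them, at 37.6 ± 1.97 CPM in KO and 58.5 ± 2.48 CPM in WT (log2 -0.64, adjusted p = 2.05e-15). Slc15a3, a peptide and histidine transporter gene of endolysosomes, was at 329 ± 8.78 CPM in KO and 374 ± 3.8 CPM in WT (log2 -0.18, adjusted p = 3.49e-09; SD, n = 3 each, edgeR's quasi-likelihood test for both). Tmem132a, whose span overlaps the end of Slc15a3, and Patl1, an mRNA decay factor gene, were also lower, by log2 fold changes of -0.32 and -0.23. With that coefficient set to 0.1, Slc15a3 and Patl1 no longer passed (adjusted p = 0.223 and 0.127).

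**Figure D4:**
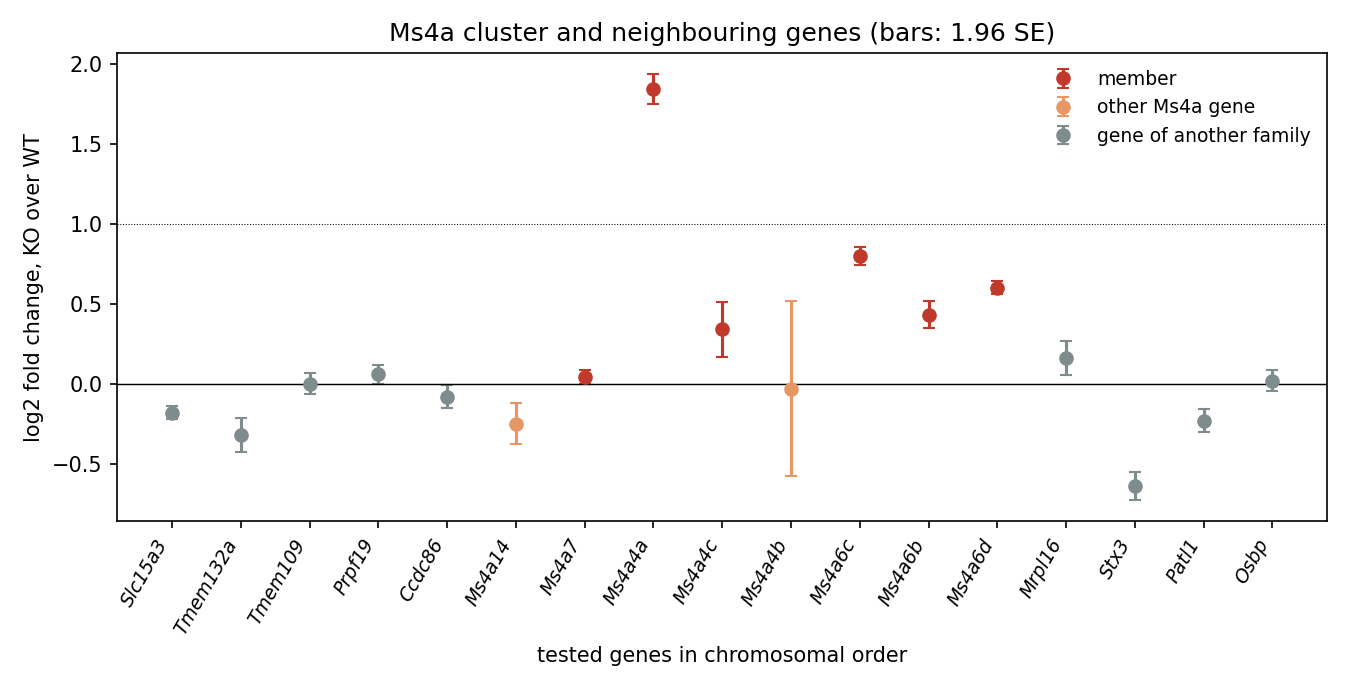
Log2 fold change of KO over WT (vertical axis, bars of approximate 95% intervals) for the 17 tested genes of the region in chromosomal order (horizontal axis), with members in red, other Ms4a genes in orange and other families in grey. The red points of 5 members lie between 0.34 and 1.84, and Ms4a4b, which stands among them, lies at -0.03. Ms4a7 and the genes on either side lie between -0.64 and 0.16.

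Relatives outside the cluster rose as well. Tmem176a and Tmem176b encode multi-pass membrane proteins related to the Ms4a family. Tmem176b had 2151, 2216 and 2186 counts in KO against 1352, 1299 and 1280 counts in WT, a log2 fold change of 0.79 (adjusted p = 7.91e-22 by edgeR, SE 0.033). Tmem176a had 814, 832 and 847 counts in KO against 611, 670 and 620 counts in WT, a log2 fold change of 0.45 (adjusted p = 1.2e-10 by edgeR, SE 0.046). The KO and WT libraries did not overlap for either gene, and by CPM they did not overlap in 71.2% of all genes tested. Of all genes tested, 34.4% were higher in KO and 34.9% lower. The annotated spans of Tmem176a and Tmem176b overlap on chromosome 6, so some reads may have been assigned to either.

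Genes for receptors and adaptors linked to Ms4a proteins were mostly higher. Of 5 tested partner genes 4 were higher and none was lower, with a median log2 fold change of 0.35. Among all genes tested, 34.4% were higher, 34.9% were lower and the median was 0.00. Clec7a, which encodes Dectin-1, was at 217 ± 3.75 CPM in KO and 164 ± 2.6 CPM in WT (log2 0.40, adjusted p = 1.75e-16). The signalling chain gene Fcer1g, which also pairs with the Ms4a2 product in the IgE receptor, was at 675 ± 18.2 CPM in KO and 330.4 ± 4.98 CPM in WT (log2 1.03, adjusted p = 4.63e-31). Tyrobp, the adaptor of Trem2, rose by 0.35 on the log2 scale, and the lipid receptor gene Trem2 by 0.17, a call lost on the TPM scale and with the assumed coefficient of variation (adjusted p = 0.268 by limma and 0.25 by edgeR). The kinase gene Syk did not pass the test (log2 -0.03, adjusted p = 0.227), although limma on log2(TPM + 1) gave -0.16 (adjusted p = 0.000185). On that scale, also used for Trem2 above, the median of all genes tested was -0.12. Vsig4, the partner of Ms4a6d, had 1 to 2 counts in KO and 0 to 2 counts in WT and was not tested (SD, n = 3 each, and edgeR's quasi-likelihood test where no other tool is named).

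Transcription factor genes of the macrophage lineage moved in both directions. Of 7 described here, 5 were higher and 2 lower, with a median log2 fold change of 0.41. Over all genes tested, 34.4% were higher and 34.9% lower. Spi1, which encodes the master regulator PU.1, was at 439 ± 2.06 CPM in KO and 330.1 ± 5.01 CPM in WT (log2 0.41, adjusted p = 3.2e-19). Cebpa and Maf rose by 0.62 and 0.58, Irf8 by 0.16, while the AP-1 genes Fos and Jun had log2 fold changes of -0.41 and -0.55. The call of Irf8 was lost with the assumed coefficient of variation (adjusted p = 0.316, edgeR's likelihood-ratio test) and on the TPM scale (adjusted p = 0.625, limma). The median of all genes tested was -0.12 on the TPM scale. Cebpb had 1046, 1392 and 1364 counts in KO against 523, 1113 and 1091 counts in WT, so that 1 WT library was much lower than the others. Its log2 fold change of 0.54 became 0.26 without WT replicate 1, and neither DESeq2 (adjusted p = 0.215) nor limma on log2(TPM + 1) (adjusted p = 0.136) called it.

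**Figure D5:**
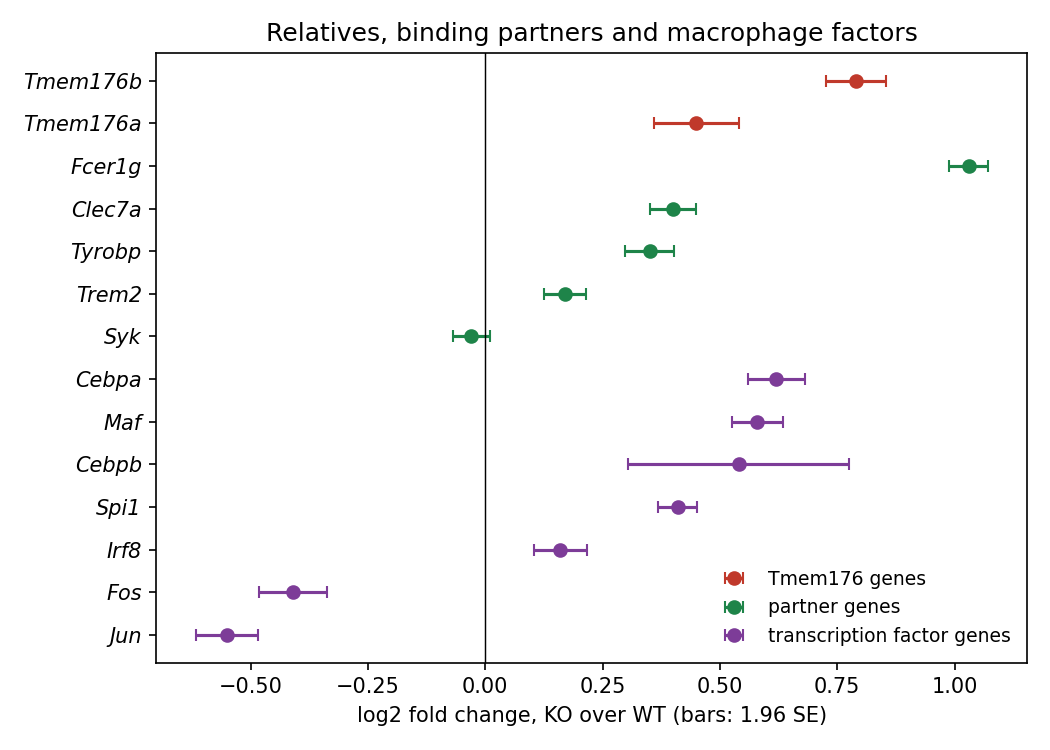
Log2 fold change of KO over WT (horizontal axis, bars of approximate 95% intervals) for the tested Tmem176, partner and transcription factor genes. Fcer1g lies highest at 1.03 and Jun lowest at -0.55, and Syk spans 0.

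Promoters of the most and the least changed member of the cluster are printed with the motifs found in them. They are the 250 bases before the RefSeq start site, chr19:11375238-11375487 on the forward strand for Ms4a4a and chr19:11336147-11336396 on the reverse strand for Ms4a7 (build GRCm38.p6), with motif matches on either strand in capitals.
Ms4a4a: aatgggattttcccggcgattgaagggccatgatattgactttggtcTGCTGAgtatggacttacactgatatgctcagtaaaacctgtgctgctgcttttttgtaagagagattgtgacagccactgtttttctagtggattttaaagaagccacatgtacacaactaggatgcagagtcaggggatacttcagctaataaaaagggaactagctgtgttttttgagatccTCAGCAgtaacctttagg
Ms4a7: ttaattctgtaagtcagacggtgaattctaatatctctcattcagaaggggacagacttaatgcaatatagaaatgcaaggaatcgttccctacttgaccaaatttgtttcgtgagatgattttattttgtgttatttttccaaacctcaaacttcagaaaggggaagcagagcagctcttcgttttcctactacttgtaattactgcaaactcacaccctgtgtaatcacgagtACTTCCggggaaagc
The motifs searched were the PU.1 core GAGGAA, the ETS core GGAAGT, the AP-1 site TGANTCA, the Maf half-site TGCTGA, a C/EBP site TTGCNNAA, an interferon regulatory factor element and the E-box CACGTG, all on both strands. The Maf half-site occurred at positions -203 and -18 of the Ms4a4a promoter, counted from the start site, in 1 of 5 members with a promoter sequence and in 16.1% of 32851 promoters. The ETS core, added after the sequences had been seen, occurred in 4 of 5 members and in 19.7% of all promoters. Its sites included position -15 of Ms4a7, -16 of Ms4a6c and -85 and -43 of Ms4a6b. Those at -16 of Ms4a6c and -85 of Ms4a6b are the same bases of the 48-base run that this pair shares. Because the motif was picked from these promoters, its share among the members is a description only. The PU.1 core occurred in 1 of 5 members, Ms4a4c, against 23.3% of promoters. The Ms4a4c promoter searched, chr19:11407411-11407660, lies inside the annotated gene span, which begins at 11404717. The AP-1 site occurred in 1 of 5 members, in a second promoter of Ms4a7, against 6.75% of promoters. The C/EBP site, the interferon regulatory factor element and the E-box occurred in 0 of 5 members, against 9.56%, 2.98% and 6.02% of promoters.

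The genes whose pattern lay closest to each member were found by the Euclidean distance between mean-centred log2 CPM values over the 6 libraries, among 9571 genes outside the family with a mean of at least 5 CPM. For Ms4a4a they were the glycosyltransferase gene Gbgt1 (distance 0.154) and the folate receptor gene Folr2 (0.173), with log2 fold changes of 1.83 and 1.90. Folr2 is also in the list of interstitial macrophage markers, with 24.4 ± 1.39 CPM in KO and 6.53 ± 0.37 CPM in WT (SD, n = 3 each). For Ms4a6c they were the NF-kB subunit gene Relb (0.0548) and Gpr162 (0.0657), for Ms4a6d Limd2 (0.0318) and the adhesion molecule gene Icam1 (0.0346), and for Ms4a6b the squalene synthase gene Fdft1 (0.0367) and Aldh6a1 (0.0435). For Ms4a4c they were Acsl1 (0.0493) and Vrk3 (0.0696). For Ms4a7 they were Rbm6 (0.0223) and Serinc1 (0.0253), with log2 fold changes of 0.05 and 0.04. Both turned negative on the TPM scale, where the median of all genes tested was -0.12. A distance over 2 groups of 3 libraries reflects mainly the size of the genotype difference. The authors' deposited heat map table lists 6784 genes, against 15824 genes in the expression table. It includes 5 of the 6 members, all but Ms4a7.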

How the data were processed

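RNA sequencing libraries of alveolar macrophages from 3 Men1 KO and 3 WT samples were grouped by their labels. The submitters' processing notes name HISAT, Bowtie2 and the build GRCm38.p6. Per the file headers, the authors deposited estimated counts per gene, FPKM, TPM and a normalised count signal, which is the count times 1 constant per library, and a heat map table whose values equal log2(FPKM + 1). The labels and headers name no counter, annotation or use of strand.

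Estimated counts, not whole for 8.66% to 9.19% of genes and whole for all members, were rounded. They were filtered with filterByExpr, scaled by TMM and tested KO over WT with edgeR 4.0.16 (quasi-likelihood F test, Benjamini-Hochberg adjustment, threshold 0.05) in R 4.3.3. Standard errors were approximated from the F statistic. CPM are counts relative to the TMM-scaled totals of tested genes. Alternatives were other scalings and filters, DESeq2 1.42.0, limma 3.58.1 on log2 FPKM and TPM values, an assumed biological coefficient of variation of 0.1, a replicate block and leaving out each library. Sequences came from RefSeq and GENCODE M21 and were aligned with Biopython 1.88. The fit was also run on simulated counts drawn with its own fitted spread, which cannot show whether that spread is technical.

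The genes named are the members, all other Ms4a and Tmem176 genes measured, up to 4 neighbours within 500 kb with the smallest p, the partner and factor lists, Men1 and the 2 genes closest in pattern to each member. Single marker genes were chosen after their values were seen. The members and lists were chosen with earlier results of these data known. Of the listed genes, 2 are not reported here, and list counts, medians and sums are without them. With 19955242 to 20151990 counts per library, counting error for a member lies between 1% and 7.8% of its count in a library.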

Additional observations from a re-analysis of the deposited data

How the results depend on the processing

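Ms4a4a, Ms4a6b, Ms4a6c and Ms4a6d stayed higher and past the threshold under all 18 alternatives, with log2 fold changes of 1.67 to 1.89, 0.28 to 0.46, 0.61 to 0.83 and 0.45 to 0.61. Ms4a4c lay between 0.18 and 0.40 and lost its call in 1 alternative, an assumed biological coefficient of variation of 0.1 (0.34, adjusted p = 0.0521), which also lowered the number of genes called to 4406. Ms4a7 turned to -0.01 with total count scaling, to -0.02 with limma on log2(FPKM + 1), the same without a filter, and log2(FPKM + 0.1), and to -0.10 on log2(TPM + 1), where 1 member was called lower. Without a low-count filter it passed as higher at 0.05, and with the replicate block at 0.04 (adjusted p = 0.047). Of its 2 nearest genes in pattern, Rbm6 turned to -0.003 with total count scaling and -0.05 on log2(TPM + 1), and Serinc1 to -0.01 with total count scaling and with log2(FPKM + 1) with and without a filter, -0.02 with log2(FPKM + 0.1) and -0.10 on log2(TPM + 1). Ms4a4b ranged from -0.16 to 0.19 as each library was left out. The causes were not tested.

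Among called genes the share higher in KO was 49.6% in the main analysis, 41.3% with total count scaling, 40.8% with log2(FPKM + 1) and 29.9% with log2(TPM + 1). Leaving out each library gave 7755 to 7935 called genes, and 5 members higher each time. Replicate numbers did not pair the libraries (correlations of -0.0178, 0.0278 and 0.0193), and the replicate block gave 8321 called genes against 8179. Not every library correlated best with its own number. Ms4a1, Ms4a2 and Vsig4 had too few counts for a comparison at this depth.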
